A study of Mus musculus with 8 samples.

Results

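The transcripts followed here were those of 6 ligands of the epidermal growth factor (EGF) receptor (Ereg, Areg, Hbegf, Tgfa, Btc and Epgn), of the receptors Egfr, Erbb2 and Erbb3, and of the feedback inhibitor Errfi1, in bulk RNA-seq of MC38 tumors. All 10 genes were listed by name among the 24421 genes of the count table. They were chosen by family and with the difference between photoconverted and control tumors in these same 8 samples already known, so every value of that contrast is given for them as a description without a test. Of the 10 genes, 8 had enough counts for the test across genes, which covered 14468 genes, and Tgfa and Epgn did not.

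MC38, a mouse colon adenocarcinoma line, was grown under the skin of female B6 Kaede mice aged 9 wk, with 250000 cells per injection. In the Photoconverted group, 4 tumors of about 5 mm were lit through the skin on day 10 with violet light of 405 nm for 3 min, which turns the Kaede protein of the host cells from green to red. In the Control group, 4 tumors received no light, and all tumors were taken 5 h after the light exposure. The comparison asks whether the light itself altered transcription in the tumor. Each library came from a whole tumor of its own mouse, so that tumor cells, leukocytes, stroma and any adhering skin or muscle were read together, and fewer cells of a type and less RNA per cell cannot be told apart.

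The ligands of this family are made as membrane-anchored precursors and are released by proteases such as ADAM17. Released ligand brings receptors together in pairs and switches on their kinases, which feed the RAS-ERK cascade. Egfr binds all 6 of these ligands, whereas Erbb2 has no known ligand and acts as the partner of the others, and Erbb3 binds neuregulins and has little kinase activity of its own. Errfi1 (also called Mig-6) is made in response to receptor signaling and blocks the receptor kinase, closing a feedback loop. In skin and gut these ligands are known for their part in wound repair, and they are made by epithelium, fibroblasts and myeloid cells.

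Ereg, Errfi1 and Hbegf were higher in every photoconverted tumor than in any control, whereas the receptors and the other tested ligands overlapped between the groups. Such a separation was found in 0.684% of all genes tested. For each of these genes, exact Poisson intervals of the lowest photoconverted tumor and the highest control overlapped. The overlap was partial for Ereg and almost complete for Hbegf and Errfi1. Fitted levels in photoconverted tumors were 2.55-fold those of controls for Ereg, 2.40-fold for Errfi1 and 1.82-fold for Hbegf, against 1.28-fold for Egfr, 0.931-fold for Erbb2 and 0.816-fold for Erbb3. In the quasi-likelihood test of edgeR, adjusted by the method of Benjamini and Hochberg, 0 of the 8 members tested passed the threshold of 0.05, which 0% of all 14468 genes did (322 of them had an unadjusted p below 0.05). DESeq2's Wald test called 24 of 20558 genes (0.117%), and Ereg and Errfi1 were among them. Nothing can be read from these counts about the family, since the same contrast chose the genes.

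**Figure D1:**
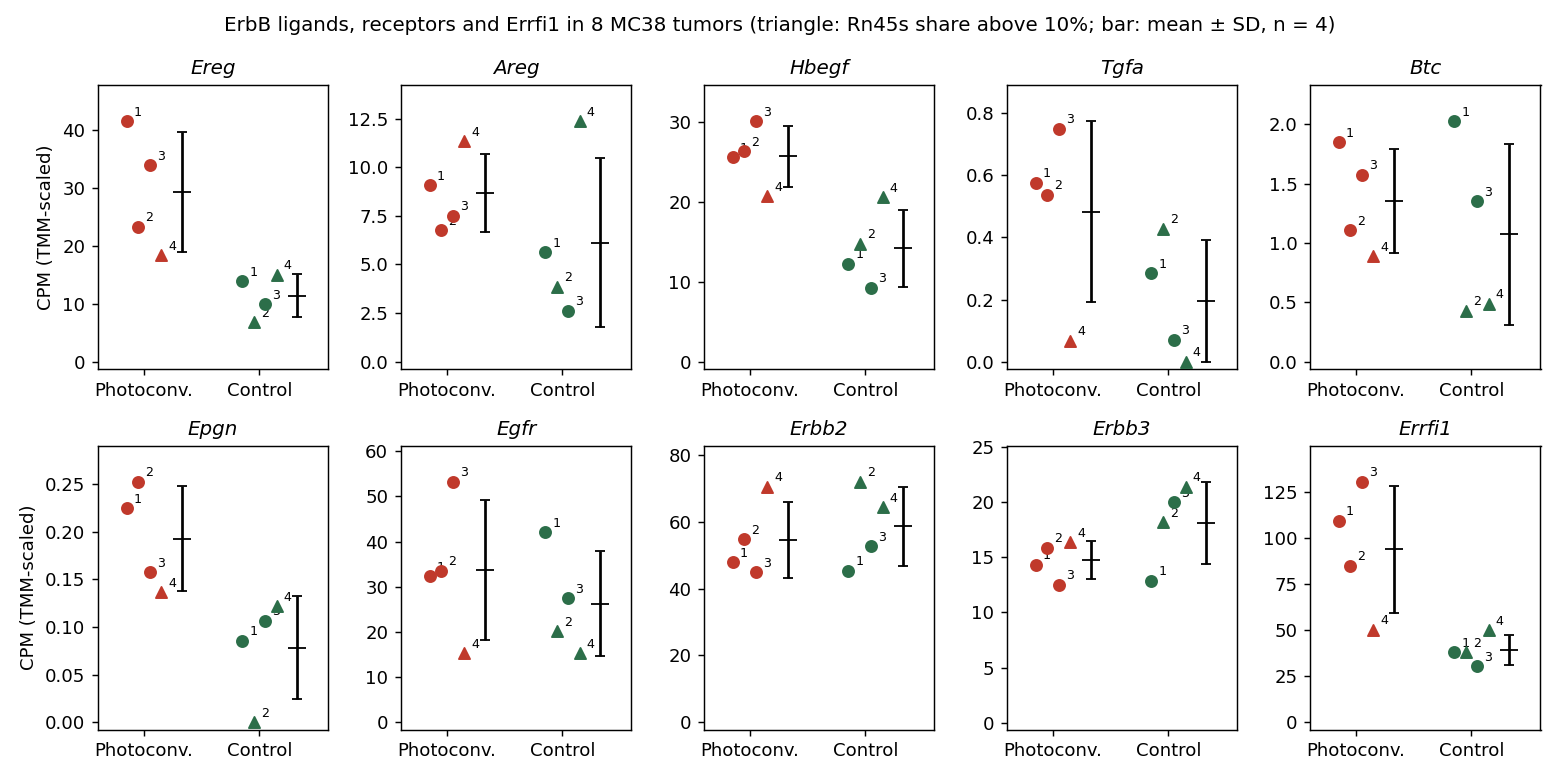
CPM of each gene (counts relative to a library size scaled by TMM) on a linear axis from 0, with 1 point per tumor labeled by its replicate number, photoconverted tumors in red and control tumors in green, triangles for libraries in which the ribosomal precursor Rn45s took over 10% of counts, and bars for the mean ± SD (n = 4). Photoconverted tumors 1 to 3 lie well above the controls for Ereg, Hbegf and Errfi1, and photoconverted tumor 4 lies just above control tumor 4 for Hbegf and Errfi1.

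Total counts ran from 12576615 to 35844417 per tumor. Rn45s, the precursor of ribosomal RNA, took between 2.70% and 9.65% of counts in 5 tumors but 21.9% in photoconverted tumor 4, 35.7% in control tumor 2 and 23.2% in control tumor 4, which were also the 3 shallowest libraries. The defining markers of colon epithelium were low throughout (Epcam averaged 0.26 CPM in both groups, Cdx2 had 0 counts in every tumor, and the 9 markers summed to between 3.62 and 6.60 CPM), while the 6 leukocyte markers summed to between 106 and 307 CPM.

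Promoter sequences are shown for Errfi1 and Areg because both hold the same 8-base element. For 7 of the 10 genes, entries of a RefSeq table of promoters on build GRCm38.p6 were used, with 2 starts for Errfi1. Each entry is a window from 250 bases before to 50 after the annotated start. No window of Ereg, Hbegf or Erbb3 was searched, and whether the full RefSeq table holds an entry for Hbegf was not checked. Each window was searched on both strands for the AP-1 motif TGANTCA, the cyclic AMP response element TGACGTCA (CRE), the heat shock element GAANNTTC, the E-box CACGTG and the CArG box of serum response factor. The CRE was found in the windows of Areg and of the downstream Errfi1 start, and none of the 5 motifs was found in the windows of the upstream Errfi1 start, Epgn, Btc, Tgfa, Egfr or Erbb2. Among all 32851 windows, 1.79% held the CRE, 7.81% the AP-1 motif, 7.86% the heat shock element, 7.15% the E-box and 1.63% the CArG box. The CRE began 51 bases before the Errfi1 start and 61 bases before the Areg start. A match of letters is a description and does not show that a factor binds there. The 150 bases before each start are given 5′ to 3′ on the plus strand, at chr4:150854920-150855069 for Errfi1 and chr5:91139449-91139598 for Areg, with the CRE in capitals. The Errfi1 stretch lies inside the Errfi1 gene as annotated, upstream of its downstream start. An antisense gene is annotated as overlapping the Errfi1 gene. The Areg stretch ends next to the first base of the Areg gene:
Errfi1: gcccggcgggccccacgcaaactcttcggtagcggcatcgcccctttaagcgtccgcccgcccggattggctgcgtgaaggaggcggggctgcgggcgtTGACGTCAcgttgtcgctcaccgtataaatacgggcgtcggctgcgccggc
Areg: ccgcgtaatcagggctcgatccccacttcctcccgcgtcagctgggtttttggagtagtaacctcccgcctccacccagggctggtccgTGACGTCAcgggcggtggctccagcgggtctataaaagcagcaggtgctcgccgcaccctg

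Epgn, Ereg, Areg and Btc lie side by side within 375.5 kb of chromosome 5 (GENCODE M21 on GRCm38, the build named mm10 in the submitters' processing notes), and no other protein-coding gene is annotated between them. Epgn (91027464 to 91035215), Ereg (91074622 to 91093646) and Areg (91139599 to 91148432) are on the plus strand, 39.4 and 46.0 kb apart, and Btc (91357261 to 91402994) is on the minus strand, 208.8 kb beyond Areg. Btc and Epgn had few counts, and all 4 neighbors had a positive log2 fold change (for Epgn 1.14, standard error 0.61, in a fit without the expression filter). A positive value was found for 46.8% of all genes tested. For Areg it was 0.50 with a standard error of 0.43, and Btc turned to -0.16 when the libraries rich in Rn45s were left out. The shared sign is a description, since these genes were chosen with this contrast known. Whether the differences of the 4 genes were unequal was not tested. Errfi1 is at 150853919 to 150868892 of chromosome 4, Egfr at 16752203 to 16918158 and Erbb2 at 98412470 to 98437716 of chromosome 11. The longest identical stretch between the annotated transcripts of any 2 of these genes was 21 bases (Ereg and Hbegf). Ereg, Egfr, Errfi1 and Tgfa overlap an annotated gene on the opposite strand, and so does Erbb2 with the protein-coding Mien1. The strand setting of the counting is not given in the sources used here.

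Among the ligands, Ereg (epiregulin, which binds Egfr and Erbb4) had 41.6, 23.4, 34.0 and 18.4 CPM in photoconverted tumors 1 to 4 and 13.9, 6.85, 9.98 and 15.1 CPM in control tumors 1 to 4. Every photoconverted tumor was above every control tumor, with photoconverted tumor 4 closest to the controls. The means were 29.4 ± 10.5 CPM and 11.5 ± 3.76 CPM (SD, n = 4 each), and the log2 fold change was 1.35 with a standard error of 0.31. In 0.684% of all genes tested every photoconverted tumor was above every control tumor, as it was for Ereg, Hbegf and Errfi1 among the 8 tested genes of the family.

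Hbegf (heparin-binding EGF-like growth factor) had 25.6, 26.4, 30.2 and 20.8 CPM in photoconverted tumors 1 to 4 and 12.3, 14.8, 9.27 and 20.6 CPM in control tumors 1 to 4. The groups did not overlap, but only by the margin between photoconverted tumor 4 and control tumor 4. That margin is within counting error, since the 304 counts of photoconverted tumor 4 allow 18.5 to 23.2 CPM and the 338 counts of control tumor 4 allow 18.5 to 22.9 CPM (exact Poisson 95% intervals, which cover counting error only). The log2 fold change was 0.86 (standard error 0.24), and it was 1.34 (standard error 0.16) when photoconverted tumors 1 to 3 were set against control tumors 1 and 3, the 5 libraries below 10% Rn45s. In edgeR that smaller fit called 42 of 15252 genes (0.275%) at an adjusted p of 0.05, Hbegf and Errfi1 included. Both genes were chosen with the difference in these same tumors known, so their calls are a description and do not test them. The smaller fit also leaves out photoconverted tumor 4 and control tumor 4, between which the margin for Hbegf was within counting error.

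Areg (amphiregulin, a ligand of Egfr alone) had 9.08, 6.75, 7.52 and 11.3 CPM in photoconverted tumors 1 to 4 and 5.62, 3.85, 2.63 and 12.4 CPM in control tumors 1 to 4. Control tumor 4 had the highest value of all 8 tumors, and the other controls lay below every photoconverted tumor. The log2 fold change was 0.50 with a standard error of 0.43, and it was 0.24 without control tumor 3 and 1.09 without control tumor 4. Photoconverted tumor 4 was the highest of its group for Areg, whereas it was the lowest for Ereg, Hbegf and Errfi1.

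The remaining ligands were near the limit of detection. Btc (betacellulin) had between 4 and 74 counts per tumor, at 1.35 ± 0.438 CPM with light and 1.07 ± 0.762 CPM without (SD, n = 4 each), and its log2 fold change of 0.26 (standard error 0.48) took the opposite sign, -0.16, in the 5 tumors with little Rn45s. Tgfa (transforming growth factor alpha) had 23, 17, 19 and 1 counts in photoconverted tumors 1 to 4 and 10, 4, 2 and 0 counts in control tumors 1 to 4. A count of 0 in control tumor 4 allows up to 0.183 CPM (3 counts), which is above the 0.068 CPM of photoconverted tumor 4. Epgn (epigen) had 2 to 9 counts in photoconverted tumors and 0 to 3 in control tumors, 31 in all, and a difference could not be measured at this depth. Added together, the 6 ligands came to 65.8 ± 12.9 CPM with light and 33.2 ± 11.3 CPM without (SD, n = 4 each). Ereg and Hbegf took most of these ligand counts in every tumor, with 35.7% to 52.7% and 32.4% to 45.2% in photoconverted tumors and 26.0% to 42.6% and 35.9% to 56.1% in controls.

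Among the receptors, Egfr had 32.4, 33.5, 53.2 and 15.4 CPM in photoconverted tumors 1 to 4 and 42.1, 20.2, 27.5 and 15.4 CPM in control tumors 1 to 4. The groups overlapped over nearly their whole range, and tumor 4 of either group had the same low value. The log2 fold change was 0.35 with a standard error of 0.39. Erbb2 had 47.9, 54.7, 44.8 and 70.4 CPM in photoconverted tumors and 45.3, 71.9, 52.7 and 64.2 CPM in control tumors, a log2 fold change of -0.10 (standard error 0.19). Erbb3 averaged 14.8 ± 1.74 CPM with light and 18.1 ± 3.75 CPM without (SD, n = 4 each), with a log2 fold change of -0.29 (standard error 0.18) and groups that overlapped through control tumor 1 (12.9 CPM).

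Egfr and Erbb2 split by the share of the ribosomal precursor rather than by group. The 3 libraries with an Rn45s share above 10% had the 3 lowest Egfr values (15.4 to 20.2 CPM against 27.5 to 53.2 CPM in the other 5) and the 3 highest Erbb2 values (64.2 to 71.9 CPM against 44.8 to 54.7 CPM). The ratio of Egfr to Erbb2 CPM, which does not depend on the scaling of a library, was therefore 0.218 to 0.281 in those 3 libraries and 0.522 to 1.19 in the other 5. Btc was also lower in all 3 (0.428 to 0.888 CPM against 1.11 to 2.03 CPM), on 4 to 13 counts. That gap is within counting error, since photoconverted tumor 4 allows 0.473 to 1.52 CPM and photoconverted tumor 2 allows 0.769 to 1.54 CPM (exact Poisson 95% intervals). Of all genes tested, 21.0% were lower and 23.4% higher in all 3 libraries than in the other 5. Such a split was therefore common and is not particular to Egfr, Btc or Erbb2. Whether the Rn45s share had a part in these levels was not tested.

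**Figure D2:**
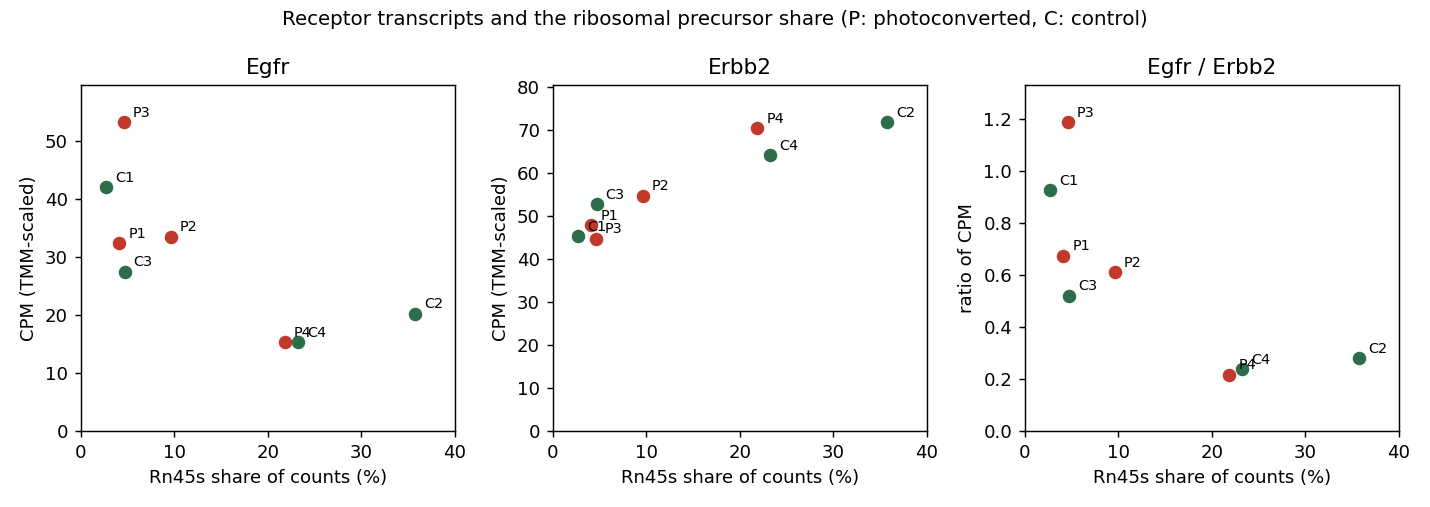
Egfr CPM, Erbb2 CPM and their ratio (linear vertical axes from 0) against the percentage of counts on Rn45s (horizontal axis), with 1 point per tumor labeled P for photoconverted or C for control and its replicate number. The 3 tumors at Rn45s shares of 21.9% to 35.7% have ratios of 0.218 to 0.281, below the 0.522 to 1.19 of the other 5, and include tumors of both groups.

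Errfi1, the feedback inhibitor, had 109, 84.8, 130 and 50.1 CPM in photoconverted tumors 1 to 4 and 38.1, 37.9, 30.5 and 49.9 CPM in control tumors 1 to 4. Photoconverted tumors 1 to 3 stood far above all controls, while photoconverted tumor 4 and control tumor 4 could not be separated (734 counts, 46.6 to 53.9 CPM, against 818 counts, 46.5 to 53.4 CPM, exact Poisson 95% intervals). The means were 93.7 ± 34.5 CPM and 39.1 ± 8.03 CPM (SD, n = 4 each), a log2 fold change of 1.26 with a standard error of 0.28. Omitting single tumors gave 1.06 to 1.47, and it was 1.66 (standard error 0.20) in the 5 tumors with little Rn45s. The ratio of Errfi1 to Egfr, the receptor it inhibits, was 2.45 to 3.37 in photoconverted tumors and 0.906, 1.87, 1.11 and 3.25 in control tumors 1 to 4 (CPM over CPM, not per length), so that control tumor 4 lay among the photoconverted tumors. The ratio to Erbb2 CPM was 1.55 to 2.91 in photoconverted tumors 1 to 3 and 0.527 to 0.841 in the controls, with photoconverted tumor 4 (0.712) among the controls.

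**Figure D3:**
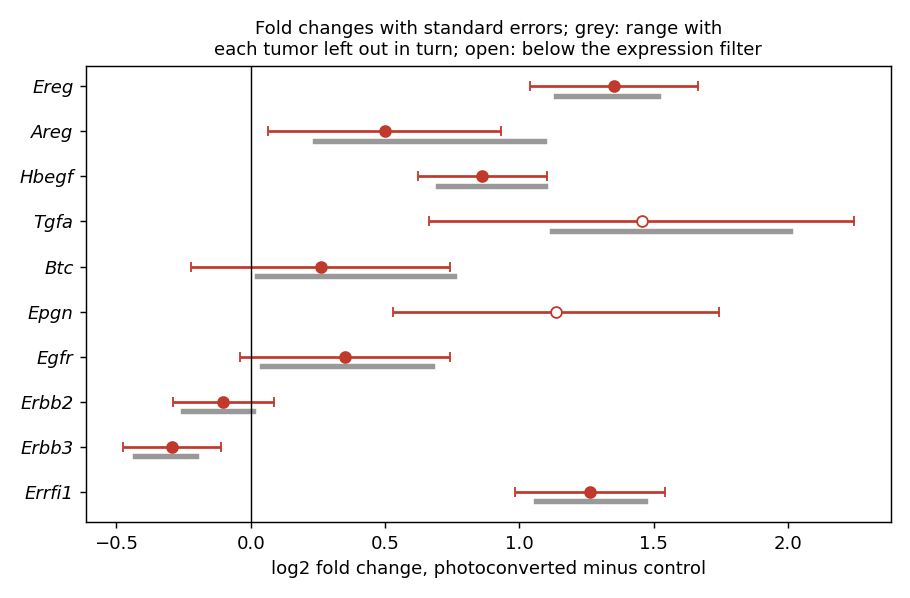
Log2 fold change of each gene (photoconverted minus control, horizontal axis) with its standard error from the edgeR fit, open circles for Tgfa and Epgn, which did not pass the expression filter, and grey bars for the range over fits that each omit a single tumor. Ereg (1.35) and Errfi1 (1.26) lie farthest from 0 among the tested genes, and the bar of Erbb2 (-0.25 to 0.01) spans 0.

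Differences within the 4 same-numbered pairs are also given, as a description, although the sample titles state no pairing. Over all genes, tumors with the same replicate number deviated from their group means in the same direction. Some tumors with different numbers did so as strongly (r = 0.482 for photoconverted tumor 3 with control tumor 1, against 0.107 in pair 2). For Ereg, log2 CPM was higher in the photoconverted tumor by 1.58, 1.76, 1.76 and 0.29 in pairs 1 to 4. For Hbegf the differences were 1.06, 0.83, 1.69 and 0.01, and for Errfi1 they were 1.52, 1.16, 2.09 and 0.01. Pairs 1 to 3 thus differed by about 2-fold or more for Ereg and Errfi1, and pair 4 differed least. For Areg pairs 1 to 3 were higher (0.68, 0.80 and 1.49) and pair 4 was lower (-0.13). Egfr was higher in pairs 2 and 3 and lower in pair 1, and Erbb3 was higher in pair 1 only. Among all genes tested, 7.20% were higher in all 4 pairs and 46.8% had a log2 fold change above 0. The counts in the family were 3 and 6 of 8, and its median log2 fold change was 0.43, next to -0.01 over the 14468 genes. The family was chosen with this contrast known, so setting it beside all genes is a description and tests nothing.

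**Figure D4:**
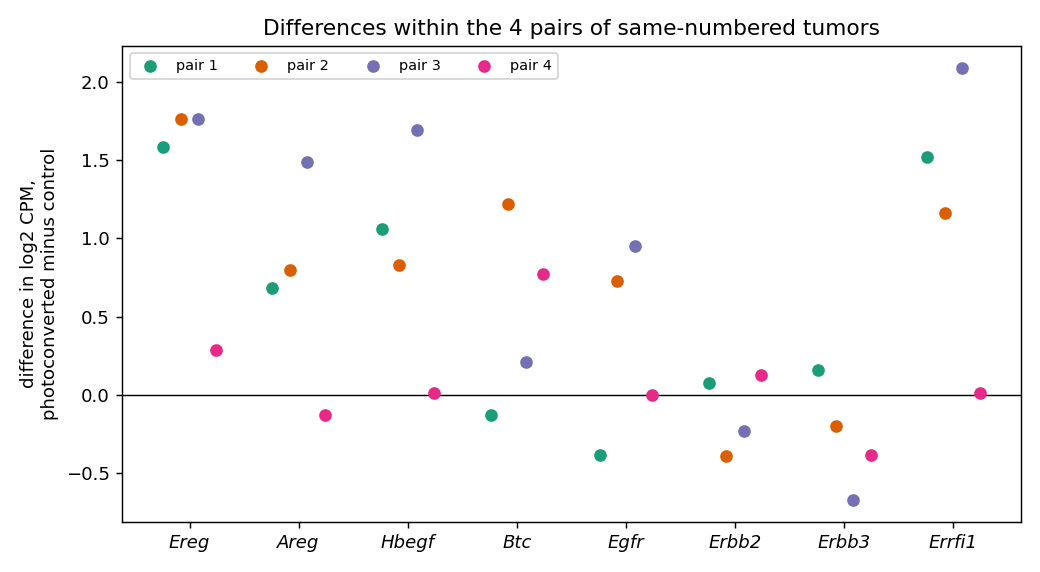
Difference in log2 CPM between the photoconverted and the control tumor of each same-numbered pair (vertical axis) for the 8 tested genes, with 1 color per pair. Pair 4 lies at 0.29 for Ereg and at 0.01 for Hbegf and Errfi1, below the other 3 pairs of each gene.

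Levels of different genes were compared per kilobase of the longest annotated transcript. In control tumors the order was Errfi1 (12.8 ± 2.64 CPM per kb), Erbb2 (11.7 ± 2.36), Areg (5.04 ± 3.58), Hbegf (4.92 ± 1.67), Erbb3 (3.01 ± 0.622), Ereg (2.77 ± 0.911), Egfr (2.57 ± 1.14), Btc (0.266 ± 0.189), Epgn (0.0446 ± 0.0309) and Tgfa (0.0433 ± 0.0434 CPM per kb, SD, n = 4 for each). From Errfi1 to Egfr, and for Epgn and Tgfa, neighbors in this order overlapped in their ranges over the control tumors, although Erbb2 was above Areg within each of the 4 tumors. Egfr was above Btc and Btc above Epgn without overlap. Areg and Ereg also overlapped (2.16 to 10.2 and 1.66 to 3.65 CPM per kb) and were not ranked. The annotated transcript of Ereg is 4128 bases long and that of Areg 1215. In photoconverted tumors the 4 highest were Errfi1 (30.8 ± 11.3 CPM per kb), Erbb2 (10.9 ± 2.28), Hbegf (8.90 ± 1.34) and Areg (7.14 ± 1.67), closely followed by Ereg (7.11 ± 2.53 CPM per kb, SD, n = 4 each). The place of Egfr rests on the length used, since the median of its 5 annotated transcripts is 716 bases against 10208 for the longest, and with that median its control level would be 36.7 CPM per kb.

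**Figure D5:**
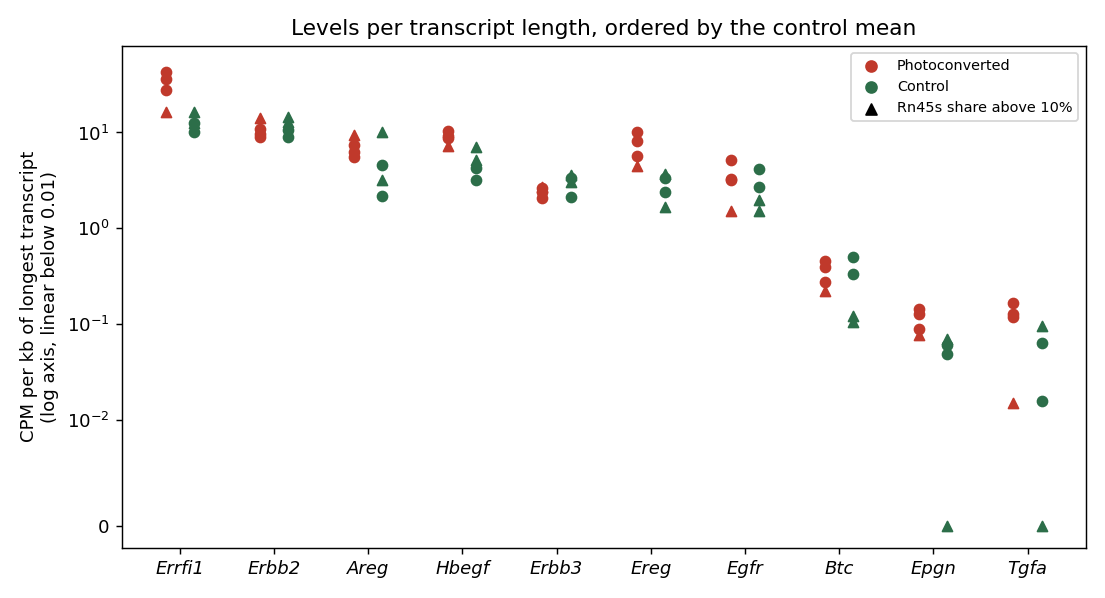
CPM per kb of the longest annotated transcript (vertical axis, logarithmic above 0.01 and linear below it) in each tumor, with genes ordered by the control mean, red for photoconverted and green for control tumors, and triangles for an Rn45s share above 10%. Btc, Epgn and Tgfa lie below 1 CPM per kb in all tumors, and the other 7 genes lie above it.

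The patterns most like those of 4 members over the 8 tumors are given by Pearson's r of log2 CPM, as a description. For Errfi1 these were Hsph1 (r = 0.983), Rrad (0.981), Osm (0.980), Cyr61 (0.975) and Ccrn4l (0.971). Hsph1 encodes a large heat shock protein, Osm the cytokine oncostatin M and Cyr61 a matrix protein. For Ereg they were Hspe1 (r = 0.976), Cxcl1 (0.969), Hsp90ab1 (0.967) and Gmeb1 (0.962), where Hspe1 and Hsp90ab1 are chaperones and Cxcl1 is a neutrophil-attracting chemokine. For Areg they were Prkrip1 (0.973), Stip1 (0.970), Ankrd1 (0.949), Ddx31 (0.948) and Gas5 (0.947), and for Hbegf they were Nfil3 (0.970), Nlrp12 (0.960), Csf1 (0.959), Enc1 (0.959) and Cdk20 (0.958). With 8 tumors such values were ordinary, because the best partner of the median gene tested reached r = 0.986. After each group was centered on its own mean, the r of these partners was between 0.872 and 0.983.

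Other genes of the pathway were tested in edgeR, and 0 of the 61 with enough counts, in 5 lists, passed the threshold in either direction (each adjusted p was at least 0.999, and 5 had an unadjusted p below 0.05). Of 6 further ligands and receptors, 3 had enough counts, namely Egf, which is EGF itself (log2 fold change 0.53, standard error 0.29), Nrg1 (0.49, standard error 0.29) and Nrg2 (-0.50, standard error 0.39), both neuregulins. Erbb4, the other receptor of Ereg and Hbegf, had at most 2 counts in any tumor, and Nrg3 had 0. The 12 genes of ligand shedding had a median log2 fold change of -0.01, with Adam17, the main sheddase of these ligands, at 112 CPM with light and 114 CPM without. In this list the smallest unadjusted p-values were those of the metalloprotease Adam8 (log2 fold change 0.48, standard error 0.16), the rhomboid protease Rhbdl2 (-0.25, standard error 0.27) and Frmd8, a partner of the iRhom proteins that carry Adam17 (-0.23, standard error 0.25).

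The 12 other negative regulators of the receptors had a median log2 fold change of 0.04. Socs5, which promotes the breakdown of Egfr, averaged 57.3 CPM with light and 40.5 CPM without, with no overlap between the groups (log2 fold change 0.50, standard error 0.14), while Cblb, a ubiquitin ligase (0.14, standard error 0.16), and the phosphatase Ptpn1 (0.10, standard error 0.13) differed by less than their errors. The 24 adaptors and members of the RAS-ERK cascade had a median of -0.02, and the transcription factor Stat3 (0.41, standard error 0.13), the adaptor Grb2 (0.22, standard error 0.11) and the phospholipase Plcg1 (-0.23, standard error 0.13) had the smallest unadjusted p-values. The 10 genes of ERK transcriptional output had a median of 0.26, with 8 above and 2 below 0. Of these, Phlda1 had a log2 fold change of 1.08 (standard error 0.43), Dusp6, the ERK phosphatase, 0.29 (standard error 0.12) and Spry2, a feedback inhibitor of the same cascade, 0.33 (standard error 0.16). Phlda1 and Epha2 were the only genes of the 5 lists that edgeR called when the 5 tumors with little Rn45s were fitted alone.

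Markers of other cells moved with the difference in part. All 6 neutrophil markers in the table had positive log2 fold changes (median 1.80) and an unadjusted p below 0.05 in edgeR. Over all 14468 genes tested, 46.8% had a log2 fold change above 0 and 322 genes had such a p. Their summed level was 59.1, 70.7 and 107 CPM in photoconverted tumors 1 to 3, which also had the most Errfi1, 18.8 CPM in tumor 4 of that group, and 16.3 to 28.4 CPM in controls. The 10 keratinocyte markers summed to 19.4 and 23.4 CPM in photoconverted tumors 2 and 3 but to 3.40 CPM in photoconverted tumor 1, which had the highest Ereg, and to between 2.60 and 5.51 CPM in the remaining tumors. Of these markers 4 could be tested and all 4 had positive log2 fold changes. Lor and Ivl, which mark cornified epidermis, had too few counts for the test. They were at 0 in every control, but their range in photoconverted tumors also began at 0 and reached only 25 and 3 counts. All 7 skeletal muscle markers had positive log2 fold changes, with sums of 135 to 1148 CPM with light and 137 to 346 CPM without. The sums of the 7 macrophage markers (565 to 1383 and 453 to 1252 CPM), 7 mast cell markers (10.7 to 29.9 and 8.91 to 22.6 CPM), 7 fibroblast markers (3448 to 4697 and 3262 to 12470 CPM) and 5 endothelial markers (87.4 to 167 and 78.3 to 133 CPM) overlapped between the groups. All 6 mast cell and all 5 endothelial markers tested had positive log2 fold changes (medians 0.62 and 0.21), and the mast cell sum was higher in the photoconverted tumor of each same-numbered pair. edgeR called 0 genes of these marker lists. The part of these cells in the levels of Ereg, Hbegf and Errfi1 was not tested.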

How the data were processed

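Per gene symbol, the authors gave raw counts of 8 tumors, deposited with a second table in which the deposited signal values are those counts divided by 1 size factor per tumor. All values of the second table (100%, within 0.01 of a whole number) returned the raw counts, and it leaves out genes with at most 1 count. The submitters' processing notes name HISAT2, featureCounts, DESeq2 and mm10. The annotation and strand setting are not given in the sources used here, and the library kit is named differently in the labels (SMARTER) and the methods (TruSeq). Counts were tested over all genes with edgeR 4.0.16 (filterByExpr, TMM, glmQLFTest, threshold 0.05) in R 4.3.3. The CPM values use TMM, and log2 CPM a prior count of 2. DESeq2 1.42.0 and limma 3.58.1 (log2 of the deposited values plus 1 or 0.1) were alternatives, beside RLE normalization, no filter, robust dispersion, Rn45s left out or as a covariate, only tumors below 10% Rn45s, single tumors left out and, for levels per kb, other transcript lengths. The procedures were tested on simulated data.

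The members and lists were chosen with earlier results of these data known. The genes named were all members, the 3 tested genes of smallest p of each pathway list, and the 5 genes most like Ereg, Areg, Hbegf and Errfi1, of which 1 is not reported here. Adam17, Erbb4, Nrg3, Epha2, Epcam, Cdx2, Lor and Ivl were named after their values were seen. Replicate numbers come from the sample titles, which state no pairing. Deviations from the group means correlated across genes between same-numbered tumors at r = 0.597, 0.107, 0.407 and 0.623 in pairs 1 to 4, so a fit with the replicate number as a block was also run. No libraries of a group were near-identical (chi-square per degree of freedom at least 23.8).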

Additional observations from a re-analysis of the deposited data

How the results depend on the processing

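The count of genes past the threshold in edgeR was 0 and moved to 24 with DESeq2's Wald test, to 42 with only the 5 tumors under 10% Rn45s, and to between 0 and 11 with each tumor left out, where 11 was reached without photoconverted tumor 4. The cause was not tested. Pathway list genes past the threshold moved from 0 to 2 in the same 5 tumors and stayed at 0 in every other fit. The median log2 fold change of the tested members (0.43) ranged from 0.30, without control tumor 2, to 0.72, without control tumor 1. With the replicate number as a block it was 0.56, 0 genes were called and 869 had an unadjusted p under 0.05, so this block changed no call. The log2 fold change of Hbegf moved by more than its within-group SD in the 5 tumors (1.34), Erbb2 was positive in 2 of 19 alternatives (at most 0.01), and Btc turned negative in 1. Counts recovered from the deposited values, an alternative chosen after seeing the data, gave 0 calls. The control order per kb was the same with the deposited values. Leaving out control tumor 4 put Hbegf before Areg and Egfr before Erbb3, and union exon length put Erbb2 before Errfi1 and Erbb3 before Hbegf. Depth limits Tgfa, Epgn and Btc.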

Other observations

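The balance between Ereg and its neighbor Areg varied between tumors. Ereg was 4.59, 3.46, 4.52 and 1.63 times Areg in CPM in photoconverted tumors 1 to 4 and 2.47, 1.78, 3.80 and 1.22 times in control tumors 1 to 4. Tumor 4 had the lowest ratio in both groups, and photoconverted tumor 4 lay within the range of the controls. With light, the ratio of Ereg to Hbegf CPM came to 1.63, 0.886, 1.13 and 0.888 (tumors 1 to 4), and without light it came to 1.13, 0.464, 1.08 and 0.731. Both ratios overlapped between the groups and were higher in the photoconverted tumor of all 4 same-numbered pairs, a difference that was not tested. The ratio of Erbb3 to Erbb2 was 0.233 to 0.299 in photoconverted and 0.253 to 0.380 in control tumors.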
